A study of Mus musculus with 27 samples.

Results

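Signal transducer and activator of transcription 5A (STAT5A) was lowered by a short hairpin in Ba/F3, a pro-B cell line of the mouse that needs the cytokine IL3 to live and grow, and polyA RNA was counted per gene. The comparison held 8 of the 27 libraries of the series. In 3 of them the cells carried a lentivirus with a hairpin against STAT5A (shSTAT5A), and in 5 a lentivirus with a hairpin that has no target (shNT). Both groups had been kept under puromycin for at least 1 week, deprived of IL3 for 6 h, and then given 10 ng/mL IL3 for 30 min. Knockdown cells without IL3 were not part of the comparison, so all values describe stimulated cells. For context, 3 libraries with a hairpin against STAT5B (shSTAT5B) had the same deprivation and stimulation, and 10 libraries came from untransduced wild-type cells, 5 stimulated in the same way and 5 deprived only. The series' design text calls the libraries biological replicates. Whether they came from separate transductions, and whether the transduced cells were pools or clones, was not given in the sources used here. Where it is not so, p-values measure only the spread between these libraries.

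STAT5A and STAT5B are closely related transcription factors encoded by neighbouring genes. Binding of IL3 to its receptor activates the kinase JAK2, which phosphorylates STAT5, and STAT5 dimers then enter the nucleus and bind DNA at palindromic sites of the form TTCNNNGAA. Their best known targets in blood cells include genes for inhibitors that damp the same signal (Cish and the Socs genes), for kinases that favour survival (Pim1) and for the cytokine oncostatin M (Osm).

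Reads counted in genes were 16.5, 11.7 and 22.6 M in shSTAT5A libraries 1 to 3, and 6.93, 8.47, 7.53, 17.6 and 13.6 M in shNT libraries 1 to 5. Levels are in CPM, counts scaled to the reads in genes of each library, with edgeR's TMM factors. The labelled cell type was checked with marker genes. The receptor chain genes Csf2rb (2015 to 5825 CPM over the 8 libraries) and Il3ra (54.2 to 124) and the B-cell receptor genes Cd79a (24.2 to 51.6) and Cd79b (15.9 to 39.6) were present. Pax5, Ebf1, Rag1, Rag2, Igll1, Il7r and Cd24a, which mark pro-B cells in the body, were each at 0.380 CPM or less in every one of the 8 libraries, and Vpreb1 at 0.509 or less. Some libraries stood apart. The share of reads outside genes was 8.70 to 11.6% in the 3 shSTAT5A libraries, and 14.0 and 17.4% in shNT 1 and 3 against 10.3 to 11.2% in the other shNT libraries. Library shSTAT5A 3 had 0.177 multi-mapped reads per counted read, against 0.290 and 0.251 in shSTAT5A 1 and 2. Libraries shSTAT5A 1 and 2 were also closer to each other in their counts (chi-square per degree of freedom 10.0) than either was to shSTAT5A 3 (84.9 and 58.7). Pairs of shNT libraries had 27.3 to 101 and pairs of shSTAT5B libraries 60.4 to 72.2. The distances to shSTAT5A 3 were thus within those of other replicates, and shSTAT5A 1 and 2 were unusually alike. Whether these 2 are less independent than the other libraries was not tested. Values without shSTAT5A 3, or without libraries with many reads outside genes, are given beside many of the results that rest on them.

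The hairpin lowered its target in every library. Stat5a lies on the plus strand of chromosome 11, at 100859351 to 100885169 in GENCODE vM21 (the mm10 build, used for all gene positions here). It stood at 26.7, 27.5 and 23.7 CPM in shSTAT5A 1 to 3, against 92.0, 70.5, 73.1, 50.5 and 75.3 CPM in shNT 1 to 5. The groups did not overlap, and the 3 knockdown libraries kept on average 35.9% of the shNT mean. In 1 edgeR quasi-likelihood fit of all 27 libraries, the log2 fold change was -1.48 (SE 0.18, adjusted p = 0.000254, Benjamini-Hochberg over 12073 genes). Stimulated wild type had 91.2 ± 10.6 CPM (SD, n = 5). With only the 2 groups fitted the log2 fold change was -1.48 with an adjusted p of 0.264, and within the 18 libraries outside both library classes it was -1.27 with an adjusted p of 0.0834.

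Its neighbour Stat5b (chromosome 11, 100780731 to 100850724, minus strand) stood at 87.9, 89.6 and 87.5 CPM in shSTAT5A, against 134, 121, 126, 103 and 95.3 CPM in shNT. All 3 knockdown libraries were below all 5 controls by a smaller margin than for Stat5a, and the gene did not pass the test (log2 fold change -0.39, SE 0.15, adjusted p = 0.566). Other members measured were Stat3, which transmits cytokines of the IL6 type, at 185 ± 26.8 against 212 ± 41.0 CPM, Stat6, which transmits IL4, at 139.6 ± 16.2 against 129 ± 16.3, and the interferon-activated Stat2, at 49.7 ± 2.70 against 55.0 ± 15.7 (shSTAT5A against shNT; SD, n = 3 and 5). Their groups overlapped and their adjusted p was 0.735 to 0.783. Stat4 had 2 of the 8 libraries above 0, at 0.0720 CPM or less, and was not tested.

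**Figure D1:**
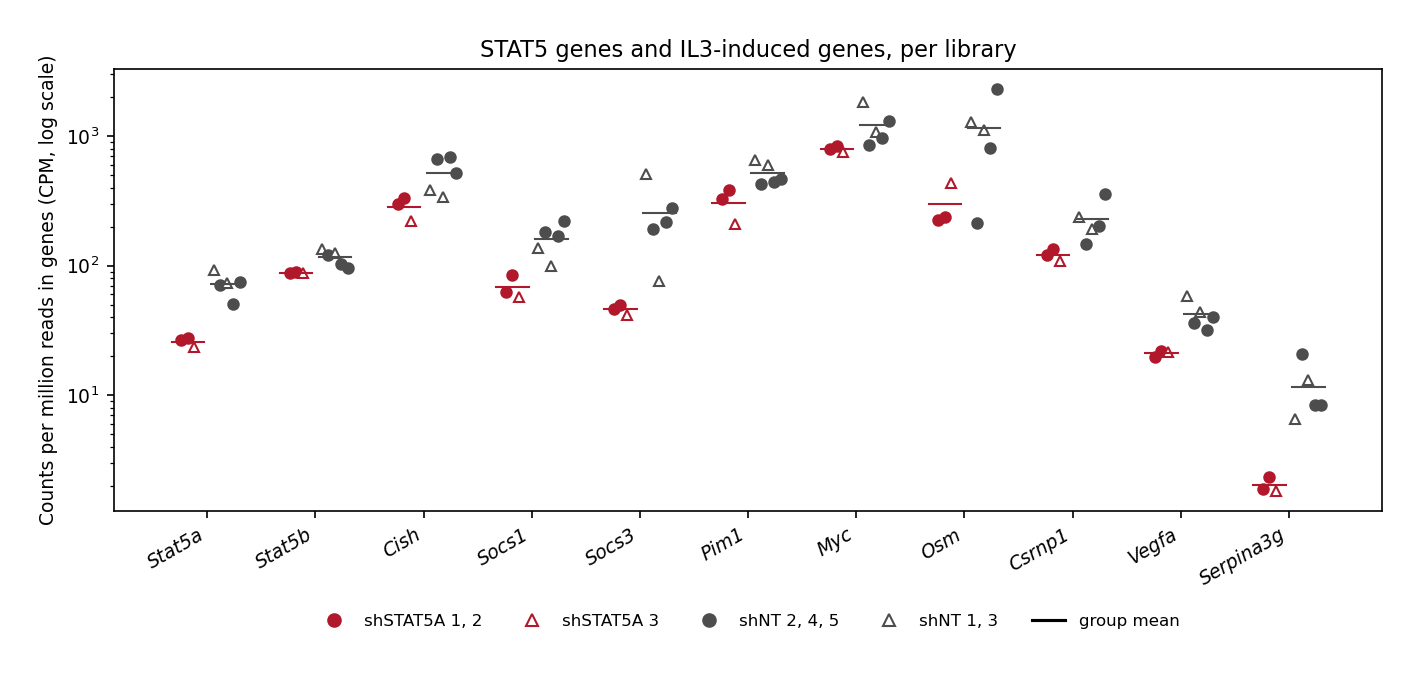
Level of Stat5a, Stat5b and 9 IL3-induced genes in each library (vertical axis, CPM on a log scale; red, shSTAT5A; grey, shNT; open triangles, shSTAT5A 3 and shNT 1 and 3; bars, group means). For Stat5a the shSTAT5A libraries lie at 23.7 to 27.5 CPM, below all shNT libraries at 50.5 to 92.0; Osm is the one gene plotted whose groups overlap.

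The test called 8 of 12073 genes (adjusted p under 0.05), which is 0.0663%: 6 were higher in shSTAT5A (0.0497%) and 2 lower (0.0166%). Beside Stat5a the gene that fell was B4galnt4, a glycosyltransferase gene. The 6 genes that rose were Clec4e, Cd14 and Pilra, which encode receptors of myeloid cells, Anxa3, which encodes an annexin abundant in neutrophils, Gadd45a, a stress gene linked to growth arrest, and Pdcd1, which encodes the inhibitory receptor PD-1. At an unadjusted p under 0.05 there were 1016 genes (8.42%), 421 higher (3.49%) and 595 lower (4.93%). The signs of all log2 fold changes were balanced, with 50.5% negative.

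B4galnt4 (chromosome 7, 141061104 to 141072400, plus strand) stood at 4.20, 5.11 and 2.98 CPM in shSTAT5A, against 14.6, 11.4, 10.9, 8.43 and 12.2 CPM in shNT. The groups were well apart, with 8.65 ± 0.949 CPM in stimulated wild type (SD, n = 5). The log2 fold change was -1.49 (SE 0.21, adjusted p = 0.00111). B4galnt4 and Stat5a were each called in 15 of the 17 alternative settings, and Clec4e in 9.

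Clec4e, a C-type lectin receptor that senses damaged cells and microbes, stood at 295, 250.5 and 446 CPM in shSTAT5A, against 95.7, 163, 161, 119 and 96.8 CPM in shNT (log2 fold change 1.38, SE 0.22, adjusted p = 0.00943). Gadd45a stood at 45.0, 41.9 and 124 CPM in shSTAT5A, against 12.7, 26.7, 20.9, 23.4 and 24.6 CPM in shNT (log2 fold change 1.70, SE 0.30, adjusted p = 0.0214). For both genes every knockdown library was above every control, and shSTAT5A 3 was the highest. Without shSTAT5A 3 neither passed: the log2 fold change was 1.10 for Clec4e (adjusted p = 0.136) and 1.00 for Gadd45a (adjusted p = 0.457).

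The remaining called genes were low or rested on shSTAT5A 3. Anxa3 stood at 2.72, 2.77 and 33.4 CPM in shSTAT5A, against 0, 2.01, 0.127, 0.226 and 0.0720 CPM in shNT, and stimulated wild type had 2.57 ± 1.86 (SD, n = 5), about the level of shSTAT5A 1 and 2. Cd14, the co-receptor for bacterial lipopolysaccharide, stood at 0.237, 0.419 and 42.7 CPM in shSTAT5A, against 0 to 0.592 CPM in shNT, so that the first 2 knockdown libraries lay within the control range. Pilra, an inhibitory receptor gene, stood at 2.90, 4.86 and 12.4 CPM in shSTAT5A, against 0.405, 1.18, 0.760, 0.622 and 0.504 CPM in shNT, with no overlap. Pdcd1 had 1.07, 1.68 and 0.803 CPM in shSTAT5A (55 reads in all) and no read in the 5 shNT libraries or in the 5 stimulated wild-type libraries. Taking 3 counts over the shNT group as its limit, it was at least 20.3-fold higher in shSTAT5A, a bound that covers counting error only. Pdcd1 was called in 2 of the 16 alternative settings that tested it and in no fit with 1 of the 8 libraries left out. DESeq2 did not call it (adjusted p = 0.337). The adjusted p of these 4 genes was 0.0459. Without shSTAT5A 3 the log2 fold change was 2.59 for Anxa3, 1.04 for Cd14 and 2.49 for Pilra, against 4.83, 6.51 and 3.29 with it, and none of the 4 passed (adjusted p 0.0843 to 0.955).

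Leaving out shSTAT5A 3 gave 7 called genes, 2 higher and 5 lower, of which Stat5a and B4galnt4 were shared with the 8. Others of the 7, named after their values were seen, were Mcm7, a subunit of the replicative helicase (log2 fold change -1.23), Mbnl3, a splicing regulator (-1.24), Ccdc6 (-1.14) and the predicted gene C030013G03Rik (3.96). The count was also moved by single controls: it was 2 without shNT 1, 13 without shNT 2, 3 without shNT 3 or shNT 4, and 4 without shNT 5.

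**Figure D2:**
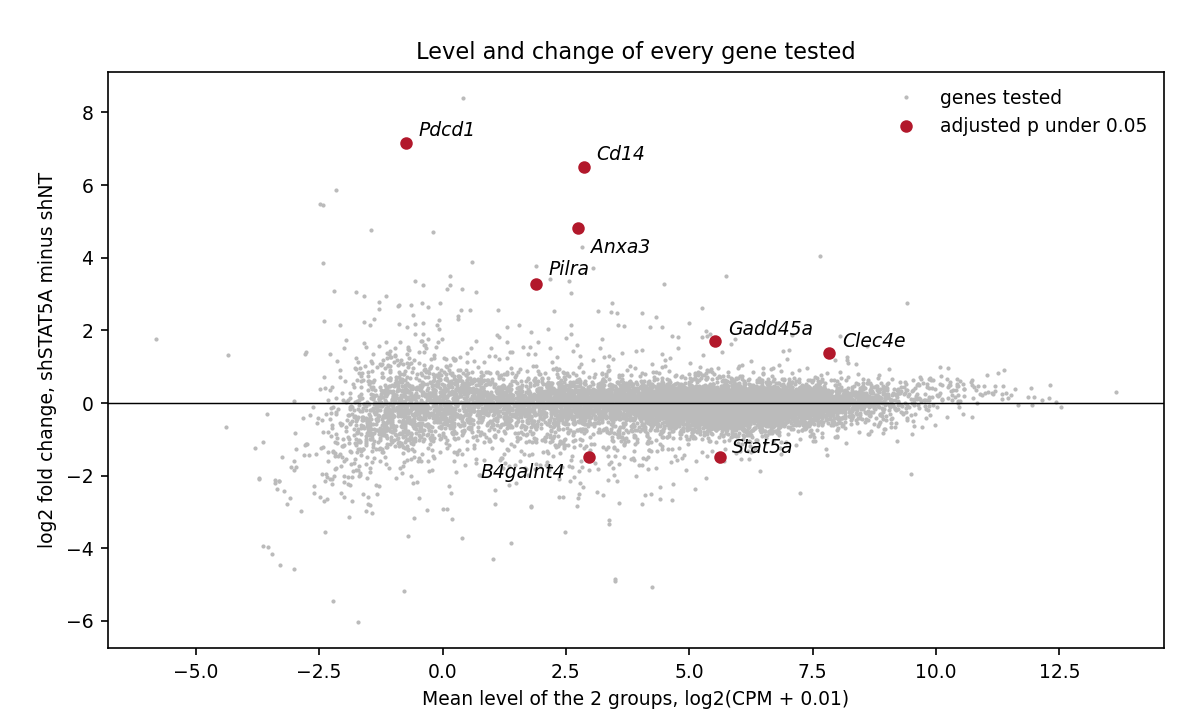
Log2 fold change of each of the 12073 genes tested (vertical axis, shSTAT5A minus shNT) against its mean level in the 2 groups (horizontal axis, log2 of CPM plus 0.01); red points are the 8 genes called at an adjusted p under 0.05. Stat5a and B4galnt4, at -1.48 and -1.49, are the 2 called genes below 0.

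The IL3 response itself was taken from wild type. There 217 genes were called and at least 2-fold higher (1.8% of those tested) after 30 min of IL3 than in deprived cells. The set comes from libraries outside the 8 compared, although all share 1 fit and its estimate of spread. Wild-type replicate numbers marked pairs, which this fit left out. A fit with them gave a set of 201 genes, with a median log2 fold change of -0.21 in the knockdown. None of the 217 was called in the STAT5A knockdown by edgeR, and 2 were higher and 23 lower at an unadjusted p under 0.05. DESeq2 called 3 of them, all lower: Serpina3g (adjusted p = 0.00454), Socs3 (adjusted p = 0.00732) and Osm (adjusted p = 0.04995). Over all 12073 genes DESeq2 called 32, 20 higher and 12 lower. Of the 217 genes, 151 had negative log2 fold changes, with a median of -0.19. Over all genes the median was -0.0043 and 50.5% were negative. In 16 of the 217 (7.37%) every shSTAT5A library was below every shNT library, against 275 of all 12073 (2.28%), and in 1 every knockdown library was above. The 16 became 36 (16.6%, against 4.9% of all genes) when shNT 1 and 3 were left out, and 23 (10.6%, against 4.44%) without shSTAT5A 3. The mean log2 level of the set (CPM plus 0.5) was 4.35, 4.38 and 4.25 in shSTAT5A, against 4.63, 4.50, 4.27, 4.63 and 4.54 in shNT and 2.59 to 2.82 in deprived wild type. The knockdown libraries thus overlapped the controls through shNT 3, and all 8 lay far above the deprived cells. Stimulated wild-type libraries covered 4.08 to 4.70.

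Of the feedback inhibitors, Socs3, Socs1 and Cish were lower in every knockdown library without passing the test. Socs3, whose product blocks JAK kinases, stood at 46.0, 49.97 and 41.9 CPM in shSTAT5A, against 514, 194, 76.0, 219 and 278 CPM in shNT. The knockdown libraries lay close together while the controls spread widely, and the mean was 17.9% of the shNT mean. The log2 fold change was -2.48 (SE 0.64) and did not pass the test (unadjusted p = 0.000742, adjusted p = 0.232). Socs1, a second JAK inhibitor, stood at 63.1, 85.5 and 57.1 CPM in shSTAT5A, against 136, 182, 99.9, 169 and 222 CPM in shNT (log2 fold change -1.24, SE 0.44, adjusted p = 0.521). Cish, the classical STAT5 target, stood at 302, 333 and 220.2 CPM in shSTAT5A, against 387, 668, 338, 686 and 516 CPM in shNT (log2 fold change -0.86, SE 0.30, adjusted p = 0.520). In Socs3, Socs1 and Cish the groups did not overlap. All remained well above deprived wild type, at 5.86 ± 1.15 CPM for Socs3, 1.21 ± 0.375 for Socs1 and 16.9 ± 4.42 for Cish (SD, n = 5). Socs2 stood at 49.6 ± 4.59 against 45.8 ± 9.70 CPM, and Socs4 at 5.92 ± 1.44 against 16.5 ± 14.3 CPM, with shNT 1 and 3 at 25.3 and 37.5 (shSTAT5A against shNT; SD, n = 3 and 5). Over 9 genes of this type, 0 were called by edgeR (4 lower at an unadjusted p under 0.05). DESeq2 called 1, against 32 of all 12073 genes. In all, 7 were negative (median -0.47), and 3 were below in every library, against 2.28% of all genes. The median was -0.14 without the 5 libraries of the series with 14.0 to 24.9% of reads outside genes, shNT 1 and 3 among them. These are called gene-poor here for their lower share of reads in genes, not for the number of genes with reads. The median was -0.042 within the 18 libraries outside both that class and the 4 libraries with few multi-mapped reads, shSTAT5A 3 among these.

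Sequence near the start of such genes is shown because STAT5 binds TTCNNNGAA, a motif whose reverse complement has the same form, so that both strands are read at once. It was sought in windows of 250 bases before to 50 bases after each start in the RefSeq promoter table (GRCm38.p6), in which 8.30% of all windows of this length hold it. By gene the share was 8.55% of the 8999 tested genes with a window (769), 10.3% of IL3-induced genes (15 of 146), and 5 of 14 IL3-induced genes that were lower in every shSTAT5A library. It was 17.6% of IL3-repressed genes (6 of 34), 13.6% of myeloid markers (3 of 22) and 11.1% of all genes that were lower in every shSTAT5A library (24 of 217). None of the 6 called genes with a window held it. The 5 were Cish, Socs3, Serpina3g, Csrnp1 and Usp17la. Around the Cish start, 5 bases before it to the base 24 after it (chr9:107296654-107296683, plus strand), the motif occurs a pair of times, with starts 11 bases apart. In the 250 bases before the starts of Socs3 (chr11:117969367-117969616, minus strand) and Serpina3g (chr12:104235897-104236146, plus strand) it occurs once each. The sequences run 5′ to 3′ with the motif in capitals. A match is a description of the letters and does not show binding.
Cish: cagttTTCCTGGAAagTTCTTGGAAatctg
Socs3: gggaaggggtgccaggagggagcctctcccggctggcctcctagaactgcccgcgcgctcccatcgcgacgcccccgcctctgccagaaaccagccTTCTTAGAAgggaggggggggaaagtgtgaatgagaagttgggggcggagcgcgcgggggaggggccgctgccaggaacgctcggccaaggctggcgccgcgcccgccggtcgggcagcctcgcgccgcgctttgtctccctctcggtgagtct
Serpina3g: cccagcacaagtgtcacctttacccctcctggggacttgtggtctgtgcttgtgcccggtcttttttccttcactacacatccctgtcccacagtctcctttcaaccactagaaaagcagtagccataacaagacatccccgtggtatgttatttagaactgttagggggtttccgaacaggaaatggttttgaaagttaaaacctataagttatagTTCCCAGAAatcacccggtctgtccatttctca

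Serpina3g, which encodes a protease inhibitor, stood at 1.90, 2.35 and 1.84 CPM in shSTAT5A, against 6.62, 21.0, 13.2, 8.48 and 8.42 CPM in shNT. Its groups were well apart, and its mean was 17.6% of the shNT mean (log2 fold change -2.51, SE 0.60, adjusted p = 0.198). Csrnp1, an immediate early nuclear factor gene, stood at 122, 134 and 109 CPM in shSTAT5A, against 239, 147, 193, 203 and 355 CPM in shNT (log2 fold change -0.90, adjusted p = 0.313). Vegfa, the angiogenic growth factor gene, stood at 19.9, 22.1 and 21.6 CPM in shSTAT5A, against 58.2, 36.4, 44.2, 31.8 and 40.4 CPM in shNT (log2 fold change -0.99, adjusted p = 0.258). Usp17la, which encodes a deubiquitinase of a family with near-identical copies, so that its reads may be shared, stood at 145, 144 and 98.6 CPM in shSTAT5A, against 399, 333, 191, 277 and 340.2 CPM in shNT. The oxidoreductase gene Ldhal6b stood at 3.55, 3.10 and 2.50 CPM in shSTAT5A, against 10.00, 8.18, 7.86, 3.68 and 5.33 CPM in shNT. The others of the 16 were Kdm6b, which encodes a histone demethylase, at 48.8 ± 8.53 against 75.5 ± 19.7 CPM, Slc20a1, a phosphate transporter gene, at 126 ± 29.3 against 155 ± 13.3, Brwd1 at 24.7 ± 0.747 against 33.4 ± 8.10, Zbtb39 at 13.2 ± 0.278 against 20.4 ± 7.53, Ptar1 (log2 fold change -0.70) and Nlrp6 at 0.187 ± 0.213 against 1.41 ± 1.31 (shSTAT5A against shNT; SD, n = 3 and 5), besides Pim1 and Myc. Their log2 fold changes ran from -0.30 for Slc20a1 to -2.94 for Nlrp6, and some were named after their values were seen. The knockdown level of Vegfa was near that of deprived wild type, 17.3 ± 3.68 CPM (SD, n = 5).

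The survival kinase gene Pim1 stood at 326, 384 and 209.5 CPM in shSTAT5A, against 655, 426, 601, 442 and 469 CPM in shNT (log2 fold change -0.76, adjusted p = 0.566). Stimulated wild type had 338 ± 21.7 CPM (SD, n = 5), below all 5 shNT libraries and within the range of shSTAT5A. Myc, the growth regulator, stood at 801, 845 and 757 CPM in shSTAT5A, against 1823, 856, 1083, 972 and 1307 CPM in shNT (log2 fold change -0.59, adjusted p = 0.566), with shNT 2 only just above the knockdown. Osm stood at 225, 237 and 435 CPM in shSTAT5A, against 1291, 214, 1115, 811 and 2306 CPM in shNT, so that shNT 2 was lower than all knockdown libraries (log2 fold change -1.94, adjusted p = 0.333). Id1, an inhibitor of differentiation factors, is induced by IL3 too and stood at 159, 190.4 and 316 CPM in shSTAT5A, against 180.2, 241, 196, 172 and 228 CPM in shNT. Its groups overlapped, as did those of Mcl1, which blocks apoptosis, at 568 ± 57.7 against 630.2 ± 33.9 CPM, of Bcl2l1 at 67.7 ± 21.2 against 53.6 ± 27.3, of Pim2 at 15.4 ± 1.99 against 13.5 ± 4.11, and of the cyclin gene Ccnd2 at 74.2 to 98.0 against 70.4 to 145 (shSTAT5A against shNT; mean ± SD, n = 3 and 5, and ranges for Ccnd2). Bcl6, a repressor that opposes STAT5, was near 0 and was not tested. Of 21 genes listed as STAT5 targets, which include Cish and Socs1 to Socs3, 0 were called by edgeR. DESeq2 called 2 (Socs3 and Osm), against 32 of all 12073 genes. Of the 21, 8 were lower and 1 higher at an unadjusted p under 0.05. In all, 13 were negative (61.9%, median -0.49), against 50.5% of all genes, and 5 (23.8%) were below in every library, against 2.28%. The median was -0.23 without shSTAT5A 3, -0.18 without the 5 gene-poor libraries and -0.12 with a term for library class.

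Immediate early genes, which many signals switch on within minutes without new protein, varied widely between controls. Fos stood at 20.3, 19.7 and 73.6 CPM in shSTAT5A, against 120.1, 12.4, 76.9, 32.6 and 312 CPM in shNT (log2 fold change -1.55, adjusted p = 0.589). The log2 fold change of Fos was -2.47 without shSTAT5A 3 and -0.67 without shNT 5. Egr2 stood at 54.5, 54.8 and 84.1 CPM in shSTAT5A, against 173, 55.0, 187, 93.1 and 336 CPM in shNT (log2 fold change -1.39, adjusted p = 0.520), and Fosb at 10.5 ± 1.87 against 25.7 ± 18.8 (SD, n = 3 and 5). In each of these genes shNT 5 was the highest and shNT 2 the lowest control, within or below the knockdown range. Egr1, another zinc finger factor of this class, was low at 1.24 ± 0.484 against 1.70 ± 0.441 CPM. Of 36 such genes 28 were negative (77.8%, median -0.28), against 50.5% of all genes. None was called by edgeR or DESeq2, 4 were lower at an unadjusted p under 0.05 (against 4.93% of all genes), and 2 (5.56%) were below in every library, against 2.28%. The median was -0.15 without shNT 5.

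**Figure D3:**
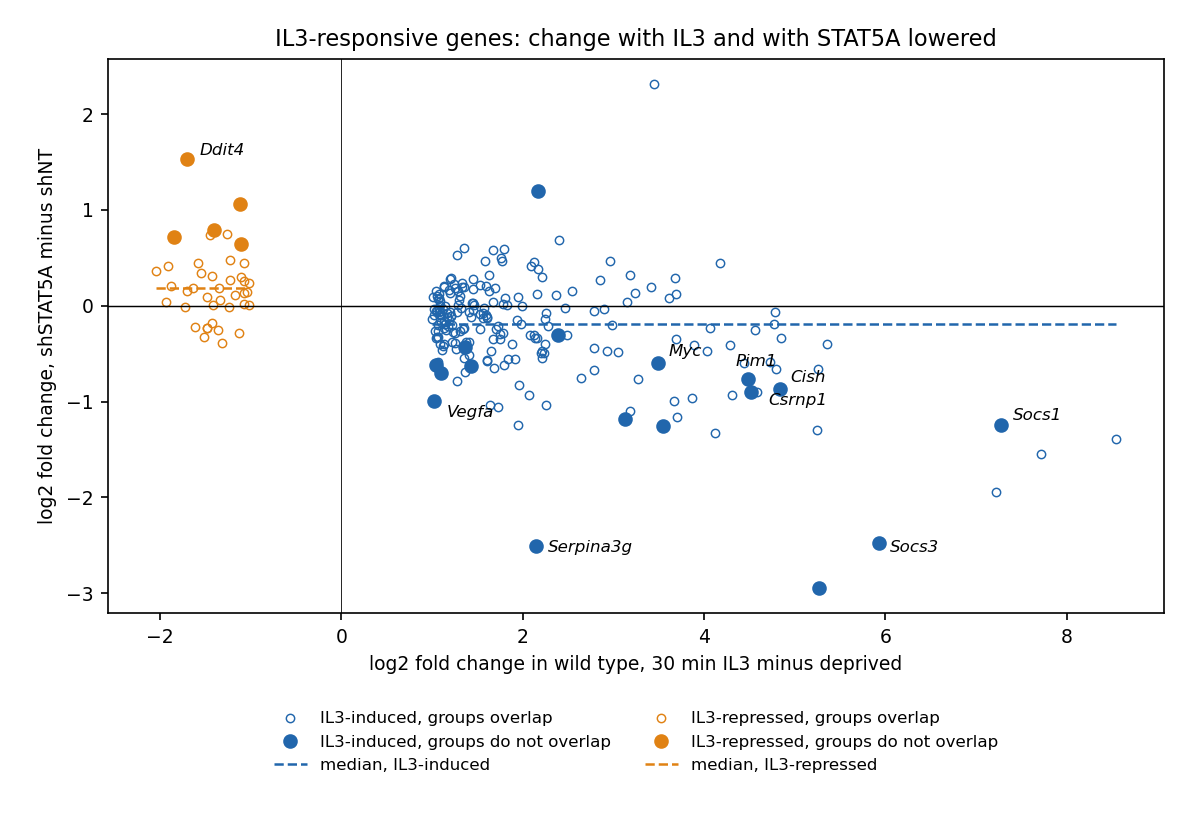
Log2 fold change in the STAT5A knockdown (vertical axis, shSTAT5A minus shNT) against log2 fold change in wild type (horizontal axis, 30 min IL3 minus deprived) for the 217 IL3-induced and 41 IL3-repressed genes; filled points are genes whose shSTAT5A and shNT libraries do not overlap, dashed lines the medians. The medians are -0.19 for induced and 0.18 for repressed genes, and 16 filled induced points lie below 0 and 1 above.

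The 41 genes that were called and at least 2-fold lower in stimulated than in deprived wild type (0.34% of those tested) had the opposite sign. Of these, 31 were positive in the knockdown with a median of 0.18. None was called by edgeR (5 higher at an unadjusted p under 0.05, 0 lower). DESeq2 called 1 (Ddit4, adjusted p = 0.0467), against 32 of all 12073 genes. In 5 of the 41 (12.2%) every shSTAT5A library was above every shNT library, against 2.53% of all genes. The mean log2 level of the set (CPM plus 0.5) was 2.21, 2.26 and 2.34 in shSTAT5A, against 1.84, 1.99, 2.26, 1.93 and 2.25 in shNT and 3.25 to 3.48 in deprived wild type. Here shNT 3 and 5 lay at the knockdown level. Ddit4, an inhibitor of mTOR signalling, stood at 29.9, 27.3 and 64.4 CPM in shSTAT5A, against 8.78, 23.8, 14.4, 12.4 and 11.1 CPM in shNT, and 85.7 ± 18.6 CPM in deprived wild type (SD, n = 5). Its log2 fold change was 1.53 (SE 0.38, adjusted p = 0.219), and 1.03 without shSTAT5A 3. Zkscan14, a zinc finger gene, stood at 11.3, 10.9 and 10.2 CPM in shSTAT5A, against 4.05, 8.53, 6.34, 6.39 and 5.76 CPM in shNT. Edaradd, an adaptor gene of the ectodysplasin receptor, stood at 3.55, 3.44 and 3.31 CPM in shSTAT5A, against 1.76, 1.54, 2.03, 2.26 and 2.74 CPM in shNT. In the last 2 genes, unlike Ddit4, the 3 knockdown libraries were nearly equal.

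Of 30 markers of myeloid cells tested, 3 were called higher (Clec4e, Cd14 and Anxa3), against 0.0497% of all genes. In all, 27 were positive (median 1.28), and in 6 every shSTAT5A library was above every shNT library, against 2.53% of all genes. The summed level of the list was 1730, 1732 and 5156 CPM in shSTAT5A, against 798, 1751, 1315, 1201 and 1103 CPM in shNT and 1043 to 1531 CPM in stimulated wild type. Libraries shSTAT5A 1 and 2 were thus just below shNT 2, and shSTAT5A 3 was far above all. The median was 0.32 without shSTAT5A 3, with 21 of 30 positive, and 0.091 within the 18 libraries outside both library classes. Whether a different mix of cells or the library itself accounts for shSTAT5A 3 was not tested. In bulk RNA, more cells of a type and more RNA per cell cannot be told apart.

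Ms4a3, a gene of granulocyte progenitors, stood at 279.7, 259 and 698 CPM in shSTAT5A, against 39.9, 204, 160.1, 68.2 and 104 CPM in shNT (log2 fold change 1.84, SE 0.45, adjusted p = 0.206). Fcgr2b, the inhibitory Fc receptor gene, stood at 106, 99.2 and 435 CPM in shSTAT5A, against 18.2, 87.8, 98.8, 45.1 and 39.3 CPM in shNT (log2 fold change 1.89, adjusted p = 0.360). In both, shSTAT5A 1 and 2 were above the highest control, for Fcgr2b by a small margin. Without shSTAT5A 3 the log2 fold change was 1.23 for Ms4a3 and 0.83 for Fcgr2b. Outside that list, the chemokine receptor gene Ccr1 stood at 73.4, 67.9 and 142 CPM in shSTAT5A, against 5.27, 32.1, 33.3, 51.6 and 16.6 CPM in shNT. The chemokine gene Ccl6 stood at 19.6, 16.2 and 23.1 CPM in shSTAT5A, against 0.135, 12.9, 3.29, 1.02 and 0.504 CPM in shNT. For Ccl6 the 3 knockdown libraries were close together, and shNT 2 was the highest control. Clec12a, an inhibitory lectin receptor gene, stood at 19.5, 17.7 and 8.74 CPM in shSTAT5A, against 0.135, 4.15, 0.760, 0.735 and 0.216 CPM in shNT (log2 fold change 3.72, SE 0.88, adjusted p = 0.178). Unlike Clec4e it was lowest in shSTAT5A 3 of the knockdown libraries. The inflammasome sensor gene Nlrp1a, with the smallest p among genes not called that were named by size, stood at 11.2, 8.72 and 23.4 CPM in shSTAT5A, against 2.57, 6.16, 3.42, 4.58 and 4.32 CPM in shNT (log2 fold change 1.77, SE 0.38, adjusted p = 0.110). DESeq2 called Nlrp1a (adjusted p = 0.00732) and Ms4a3 (adjusted p = 0.0309).

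Other genes outside that list were also higher in every shSTAT5A library. Tnfrsf26, a receptor gene of the TNF family, stood at 49.6, 39.2 and 103 CPM in shSTAT5A, against 4.32, 25.9, 28.4, 20.5 and 9.79 CPM in shNT. Trpm2, a calcium channel gene, stood at 9.48, 9.14 and 26.4 CPM in shSTAT5A, against 0.540, 4.15, 7.86, 0.622 and 0.360 CPM in shNT. Prkch, a protein kinase C gene, stood at 23.2, 20.9 and 56.2 CPM in shSTAT5A, against 1.62, 20.5, 9.25, 1.53 and 0.432 CPM in shNT. In these 3 genes shSTAT5A 3 was the highest library and the groups did not overlap, for Trpm2 and Prkch by a small margin.

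Granule genes varied widely. Prg2, the major basic protein of eosinophils, stood at 608, 643 and 2303 CPM in shSTAT5A, against 46.6, 496, 169.7, 103 and 58.8 CPM in shNT (log2 fold change 2.76, SE 0.77, adjusted p = 0.302). Ear6, an eosinophil ribonuclease gene of a family with near-identical copies, so that its reads may be shared, stood at 34.4, 37.8 and 125 CPM in shSTAT5A, against 3.51, 27.7, 14.4, 5.71 and 2.52 CPM in shNT. In both genes shNT 2 was the highest control, and the log2 fold changes without shSTAT5A 3 were 1.84 for Prg2 and 1.77 for Ear6. Of 7 eosinophil markers tested, 0 were called by edgeR or DESeq2 (4 higher at an unadjusted p under 0.05), 6 were positive (median 1.82), and 3 were above in every library, against 2.53% of all genes. The median was 1.06 without shSTAT5A 3 (5 of 7 positive), 0.73 within the 18 libraries and 3.11 without shNT 2. Their summed level was 918, 961 and 3755 CPM in shSTAT5A, against 107, 1108, 477, 161 and 135 CPM in shNT and 137 to 1061 CPM in stimulated wild type. The mast cell protease gene Cpa3 stood at 40.1, 35.0 and 9.21 CPM in shSTAT5A, against 2.16, 4.27, 8.62, 8.71 and 1.30 CPM in shNT. Hdc, the enzyme that makes histamine, had the opposite order, with 8.47, 7.38 and 178 CPM in shSTAT5A, against 11.8, 21.9, 33.3, 2.88 and 12.7 CPM in shNT, and its log2 fold change of 1.99 was -1.03 without shSTAT5A 3. Gzmb, the protease granzyme B, stood at 149, 143 and 3.12 CPM in shSTAT5A, against 2.03, 1.54, 3.42, 26.6 and 7.78 CPM in shNT. Libraries shSTAT5A 1 and 2 were well above the highest control, and shSTAT5A 3 lay within the control range. Of 11 mast cell and basophil markers, 5 were positive. Their median of -0.17 was 0.27 without shNT 2, 0.13 without shNT 4 and 0.57 with the class term, so it had no stable direction.

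**Figure D4:**
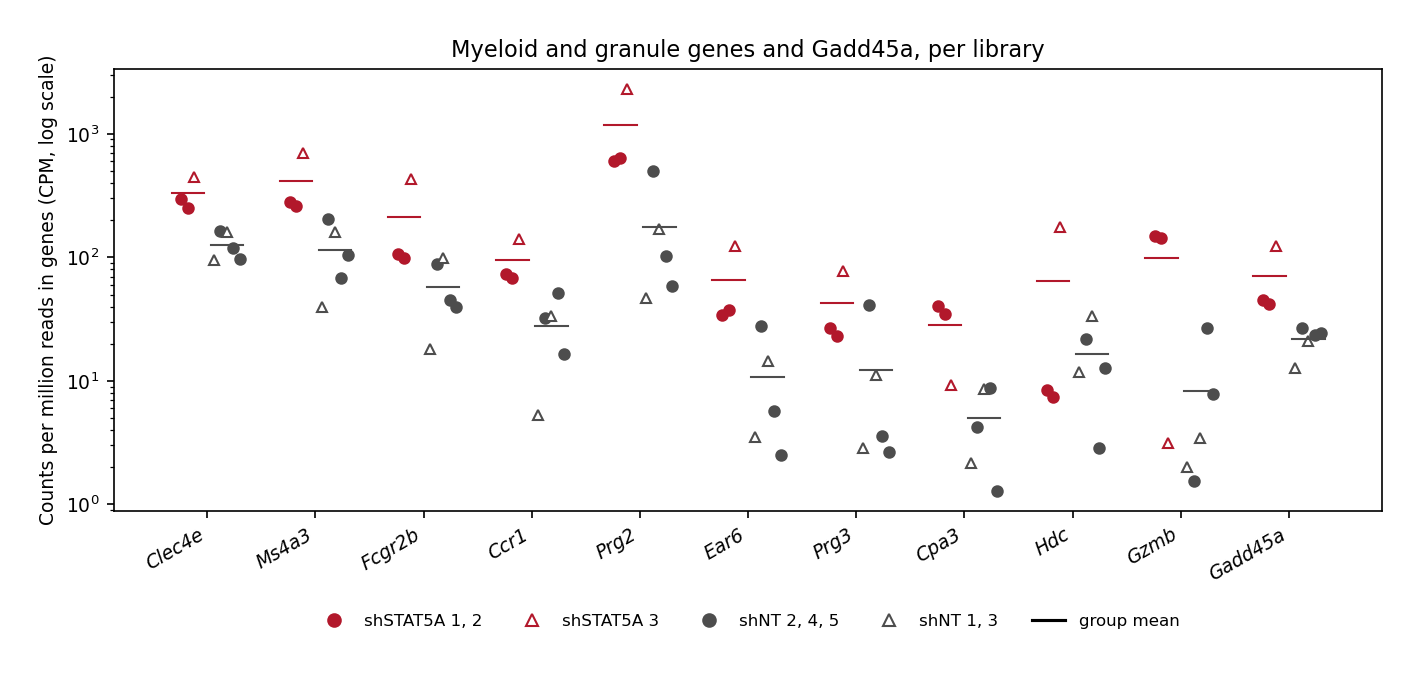
Level of 10 myeloid and granule genes and of Gadd45a in each library (vertical axis, CPM on a log scale; red, shSTAT5A; grey, shNT; open triangles, shSTAT5A 3 and shNT 1 and 3; bars, group means). Library shSTAT5A 3 is the highest for Prg2, at 2303 CPM, and for Hdc, at 178, and lies among the controls for Gzmb, at 3.12.

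Erythroid and megakaryocyte markers had a median of -0.071 over 11 genes tested, and of 0.062 without shNT 5, with summed levels of 1610 to 1766 CPM in shSTAT5A against 1490 to 1945 CPM in shNT. Fibroblast and endothelial markers had 2 of 13 genes tested, and T and NK markers 5 of 17 (median -0.54, and -0.15 without shNT 4), with T and NK summed levels of 6.88 to 9.49 CPM in shSTAT5A against 3.93 to 11.8 CPM in shNT. B-lineage markers had a median of -0.21 over 8 genes, and of -0.040 without shSTAT5A 3. None of the genes in these lists was called by edgeR or DESeq2, or passed an unadjusted p of 0.05.

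All 79 genes of cytosolic ribosomal proteins had positive log2 fold changes (median 0.47), 0 were called by edgeR or DESeq2 (4 higher at an unadjusted p under 0.05) and 10 (12.7%) were above in every library, against 2.53% of all genes. Their summed level was 98723, 102160 and 127569 CPM in shSTAT5A, against 64531, 97065, 50943, 95527 and 97225 CPM in shNT. The lowest controls were shNT 1 and 3, and shNT 2, 4 and 5 lay just below shSTAT5A 1. The median was 0.20 without the 5 gene-poor libraries and -0.013 with a term for library class, with 34 of 79 positive. Rpl5 stood at 1172, 1181 and 1768 CPM in shSTAT5A, against 565, 828, 611, 1135 and 954 CPM in shNT. Genes of ribosome biogenesis had the other sign, with 28 of 37 negative (median -0.18, and -0.068 without shNT 1). In 1 of the 37 (2.7%, against 2.28% of all genes) the groups did not overlap: Polr1a, the largest subunit of RNA polymerase I, at 21.3, 24.1 and 24.4 CPM in shSTAT5A, against 83.1, 29.4, 47.6, 27.3 and 31.4 CPM in shNT. Npm1, a nucleolar chaperone in that list, stood at 1720.4 ± 469.9 against 1128 ± 198 CPM (shSTAT5A against shNT; SD, n = 3 and 5).

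Lysosomal genes were positive in 26 of 27 (median 0.34), with 0 called by edgeR or DESeq2 (3 higher at an unadjusted p under 0.05) and 8 (29.6%) above in every library, against 2.53% of all genes. Their summed level was 4430, 4610 and 6450 CPM in shSTAT5A, against 3046, 4408, 3610, 4371 and 4155 CPM in shNT, so that the groups did not overlap but shSTAT5A 1 was close to shNT 2. The median was 0.20 without shSTAT5A 3, 0.12 with the class term (23 of 27 positive) and 0.064 within the 18 libraries (18 positive). Gla, the lysosomal galactosidase, stood at 46.3, 44.9 and 81.6 CPM in shSTAT5A, against 19.1, 35.8, 35.9, 42.4 and 32.5 CPM in shNT. Dnase2a, the lysosomal nuclease, stood at 40.2, 46.8 and 96.2 CPM in shSTAT5A, against 38.1, 34.2, 39.5, 35.6 and 35.2 CPM in shNT. Dnase2a stood at 69.0 ± 9.94 CPM in stimulated wild type (SD, n = 5). Genes of endoplasmic reticulum stress had a median of 0.19 over 21 genes and of -0.081 without shSTAT5A 3; the chaperone gene Calr stood at 2285, 2273 and 4867 CPM in shSTAT5A, against 1348, 2194, 2035, 1689 and 1598 CPM in shNT.

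Among genes of cell death, Bcl2l11, which encodes the apoptosis inducer BIM, stood at 151, 139 and 64.2 CPM in shSTAT5A, against 69.2, 87.0, 68.9, 65.0 and 82.6 CPM in shNT (log2 fold change 0.67, adjusted p = 0.477). Libraries 1 and 2 were above all controls and shSTAT5A 3 was below them. Bcl2l11 was called in 1 of the 17 alternative settings. This was the edgeR fit without the 4 libraries with few multi-mapped reads (log2 fold change 0.96, adjusted p = 0.0192). Bmf, a second inducer of apoptosis, stood at 1.24, 1.59 and 3.35 CPM in shSTAT5A, against 6.49, 7.35, 11.0, 2.32 and 5.69 CPM in shNT (log2 fold change -1.63, adjusted p = 0.232 by edgeR and 0.0309 by DESeq2, which called it). The BCL2 family as listed had 0 of 11 genes called by edgeR and 7 positive, with a median of 0.24, and of 0.13 without shSTAT5A 3 and 0.038 with the class term. Of 31 genes of S phase and replication, 21 were negative (median -0.12). The median was -0.19 without shNT 2, -0.075 without shSTAT5A 2 and -0.029 with the replicate block. Among the negative genes was Rrm2, a subunit of ribonucleotide reductase, at 193 ± 26.8 CPM in shSTAT5A against 279 ± 52.6 in shNT (SD, n = 3 and 5). The mitotic checkpoint kinase gene Bub1b stood at 158, 149.8 and 142 CPM in shSTAT5A, against 195, 166, 202, 182 and 194 CPM in shNT, a small difference without overlap (log2 fold change -0.32, adjusted p = 0.454). Of 22 p53 and growth arrest genes, edgeR called 1 (Gadd45a), against 8 of all 12073 genes. DESeq2 called 2 (Gadd45a and Ddit4), against 32 of all 12073 genes. In all, 8 of the 22 were positive. The median was -0.092, and 0.0028 without shSTAT5A 3 (11 of 22 positive). Of the lists not yet described, none had a gene called by edgeR, and DESeq2 called 1, the cytokine gene Osm. Their medians lay between -0.22 (genes of LSD1 and HDAC3 co-repressors) and 0.28 (interferon response), which were -0.019 and 0.073 without the 5 gene-poor libraries. The median of receptor chains, JAKs and adaptors was -0.14, and -0.054 without shNT 2. The median of NF-kB genes was 0.083, and -0.021 without shSTAT5A 3, and that of cytokine genes was 0.23, and -0.080 without it. The lists of glycolysis and hypoxia, cholesterol synthesis, the amino acid response and mitosis had medians between -0.091 and -0.039, and each changed sign when 1 library was left out.

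**Figure D5:**
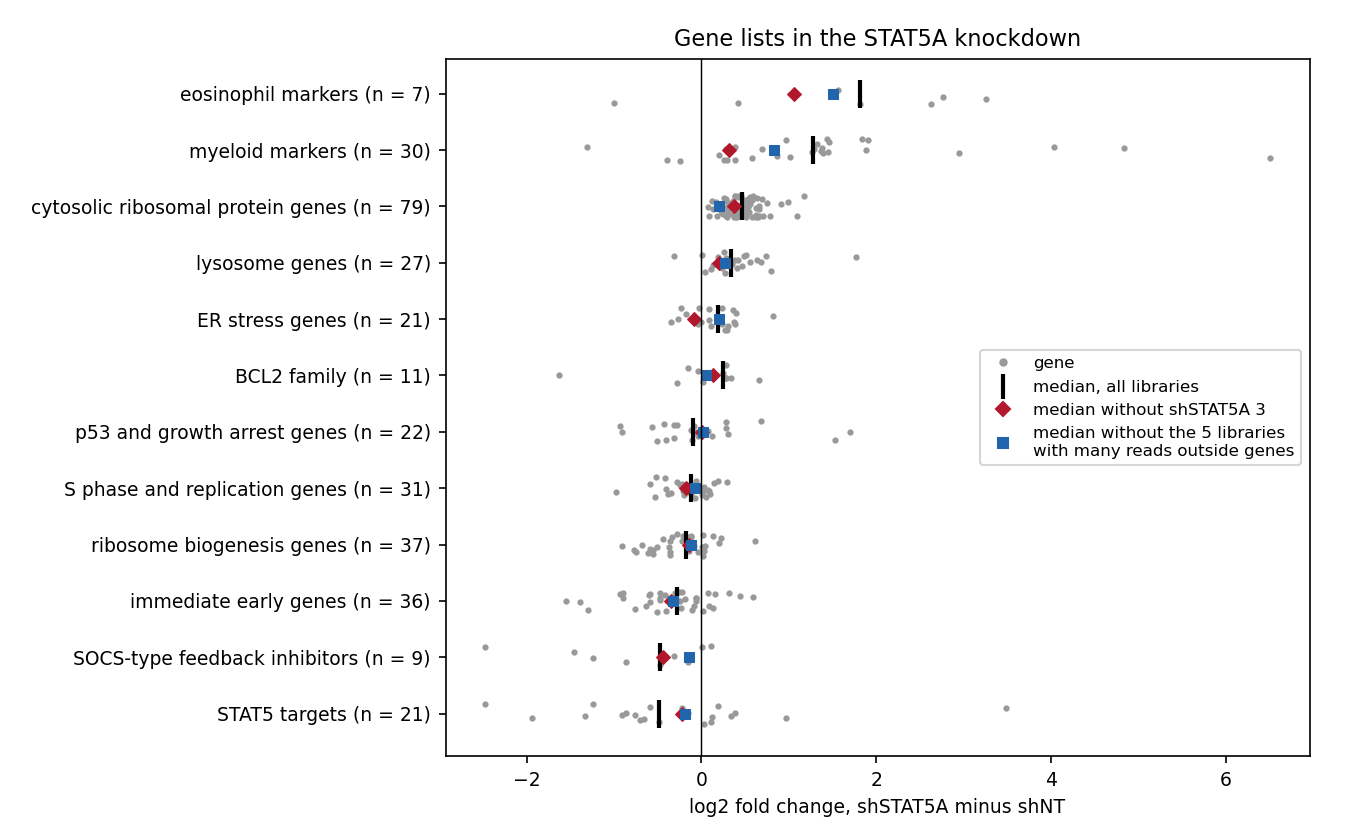
Log2 fold change (horizontal axis, shSTAT5A minus shNT) of the tested members of 12 gene lists (grey points), with the list median over all libraries (black bar), without shSTAT5A 3 (red diamond) and without the 5 gene-poor libraries (blue square). The median of the myeloid list is 1.28 over all libraries and 0.32 without shSTAT5A 3.

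Some genes were below the controls mainly through shNT 1 and 3. Ccnt1, a subunit of the elongation factor P-TEFb, stood at 2.78, 3.19 and 3.12 CPM in shSTAT5A, against 37.7, 4.03, 54.5, 3.96 and 3.74 CPM in shNT. Mdn1, an AAA protein of ribosome assembly, stood at 18.4, 17.4 and 16.7 CPM in shSTAT5A, against 104, 22.0, 87.9, 22.6 and 26.9 CPM in shNT. The same order held for Jade3 and Gpam, and in these 4 genes shNT 2, 4 and 5 were just above the knockdown. Of the 275 genes below in every shSTAT5A library, 155 (56.4%) had shNT 1 and 3 as their 2 highest controls, against 24.4% of all genes. Of the 305 genes above in every shSTAT5A library, 200 (65.6%) had shSTAT5A 3 as the highest, against 39.9% of all genes. Without the 5 gene-poor libraries, the log2 fold change was -2.32 for Socs3, -1.48 for Socs1, -1.13 for Cish and -2.62 for Serpina3g, and none passed (adjusted p = 0.397 to 0.884).

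The STAT5B and STAT5A knockdowns share the shNT libraries, so they were compared with each other directly. Of 12073 genes, 3 were called between them (0.0248%), 2 higher in shSTAT5A (0.0166%) and 1 lower (0.00828%): the 2 targets and Vps26b, a gene of the retromer complex. Stat5a stood at 26.7, 27.5 and 23.7 CPM in shSTAT5A, against 61.7, 89.8 and 75.0 CPM in shSTAT5B (log2 fold change -1.54, SE 0.19, adjusted p = 0.000222). Stat5b stood at 87.9, 89.6 and 87.5 CPM in shSTAT5A, against 33.7, 29.3 and 36.0 CPM in shSTAT5B (1.42, SE 0.18, adjusted p = 0.000222). Vps26b stood at 120.3, 115 and 122 CPM in shSTAT5A, against 86.4, 70.0 and 65.1 CPM in shSTAT5B (0.69, SE 0.11, adjusted p = 0.0110), and 110.2 ± 4.51 CPM in shNT (SD, n = 5). There were 9 calls without shSTAT5A 3, 5 without shSTAT5B 1, and 2 without any other single library of either knockdown.

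The genes described above were set side by side. Socs3 stood at 45.4, 58.4 and 216 CPM in shSTAT5B and Socs1 at 47.9, 53.7 and 305, so that for both genes shSTAT5B 1 and 2 were near the shSTAT5A libraries. Library shSTAT5B 3 lay within the range of shNT for Socs3 and above every shNT library for Socs1. Osm stood at 267, 329.9 and 1257 CPM in shSTAT5B, again highest in shSTAT5B 3. The direct log2 fold change, shSTAT5A minus shSTAT5B, was -1.21 for Socs3, -0.98 for Socs1, -1.05 for Osm, 0.036 for Cish and 0.43 for Pim1, none past the threshold (adjusted p = 1). B4galnt4 stood at 4.75, 4.68 and 3.00 CPM in shSTAT5B, and the direct log2 fold change was -0.039 (SE 0.22). Against the same controls, IL3-induced genes had a median of -0.19 in shSTAT5A and -0.19 in shSTAT5B, and IL3-repressed genes 0.18 and 0.21. In the same order, the medians were 1.28 and 1.19 for myeloid markers, 0.47 and 0.46 for ribosomal proteins, and 0.34 and 0.65 for lysosomal genes. Eosinophil markers had 1.82 and 0.34, and mast cell and basophil markers -0.17 and 0.92. Without shSTAT5A 3 the eosinophil median in shSTAT5A was 1.06. The summed eosinophil level was 995 to 1724 CPM in shSTAT5B, against 918, 961 and 3755 CPM in shSTAT5A and 107 to 1108 CPM in shNT. The summed myeloid level was 2013 to 3063 CPM in shSTAT5B, against at most 1751 in shNT. Positive medians of the myeloid, ribosomal and lysosomal lists were thus not particular to shSTAT5A. Both knockdowns were set against the same shNT libraries, so the 2 medians of a list are not independent. With a term for library class the ribosomal median in shSTAT5A was -0.013. Gzmb also spread widely in shSTAT5B, at 27.4, 3.47 and 194 CPM. Prg2 stood at 717, 994 and 1003 CPM in shSTAT5B, each above the highest shNT library. With the spread of 3 against 3 libraries, a p that misses the threshold does not show that the knockdowns act alike.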

How the data were processed

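PolyA RNA of Ba/F3 cells was sequenced in 27 libraries of 7 groups, assigned from the labels. The authors deposited unnormalized counts, a file per library with a row per gene symbol; its 5 closing summary rows entered no library size or test and served only as library measures. Per the submitters' processing notes, the tools named were Trimmomatic 0.30, TopHat2 2.0.10, HTSeq 0.5.4p5 and DESeq2 1.2 with the mm10 build; the sources used here state no counting mode, strand setting or annotation, so reads of overlapping genes cannot be told apart. From these counts edgeR 4.0.16 (R 4.3.3, limma 3.58.1) fitted a robust quasi-likelihood model with TMM scaling, 1 mean per group, to all 27 libraries, so that the groups share 1 estimate of spread. Its expression filter left 12073 genes, and p-values were adjusted by Benjamini-Hochberg over all of them, with a call at 0.05. CPM values were computed here with TMM scaling. The SE printed is the size of the log2 fold change divided by the square root of its quasi-likelihood F statistic. A floor of 3 counts equals 0.133 to 0.433 CPM in the 8 libraries; bounds cover counting error only. The fit was also run on simulated counts as a check of the code, and the outcome is not reported here.

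The members, gene lists and tests were chosen with earlier results of these data known. Named genes were the STAT family, 16 core IL3 targets, all called genes, the 12 largest non-overlapping differences each way among genes not called (unadjusted p under 0.05, mean of at least 5 CPM), up to 4 members per list and up to 10 per IL3 set by smallest p, and called genes of the direct comparison. Any other gene was chosen after its values were seen. Some genes are not reported here. Alternatives were DESeq2 1.42.0, other scaling, no filter, a stricter threshold, only 2 groups, a replicate term, library classes and leaving out each library. Library classes were read from the summary lines: 5 libraries of the series with 14.0 to 24.9% of reads outside genes (shNT 1 and 3 among them), and 4 with 0.177 to 0.190 multi-mapped reads per counted read (shSTAT5A 3 among them). Numbers shared between shSTAT5A and shNT libraries did not mark pairs, while those of the 2 wild-type groups did (correlation of deviations 0.375 to 0.716). Between shSTAT5A and shSTAT5B the correlations at numbers 1 to 3 were 0.51, -0.26 and 0.088. Library shSTAT5A 3 went with shSTAT5B 2 (0.44), both with few multi-mapped reads. The direct comparison left such likeness out, and its replicate block went by number. Within shSTAT5A, within shNT and within shSTAT5B, no 2 libraries agreed within counting noise. Other groups were not examined for this.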

Additional observations from a re-analysis of the deposited data

Results flagged for a closer look

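Within the 5 shNT libraries, 76 of the named genes were examined for a single library far from the others, and 10 were found. Many of the genes were chosen from these same libraries and they are not independent, so no chance rate applies to the count. Library shNT 2 was far above the other controls in 6 of the 10, all myeloid or granule genes. They were Anxa3 at 2.01 CPM, Ccl6 at 12.9, Cd14 at 0.592, Clec12a at 4.15, Prg2 at 496 and Prg3, a second granule protein gene of eosinophils, at 40.9 CPM. Library shNT 1 was highest for Dkc1, a gene of ribosome biogenesis, at 169 CPM and lowest for Vps26b at 102 CPM. Library shNT 4 was highest for Gzmb at 26.6 CPM and shNT 3 for Stat2 at 82.5 CPM.

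The effect of the STAT5A hairpin differed from that of the STAT5B hairpin in the direct edgeR test for Stat5a (log2 fold change -1.54, adjusted p = 0.000222), Stat5b (1.42, adjusted p = 0.000222) and Vps26b (0.69, adjusted p = 0.0110).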

How the results depend on the processing

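The 8 called genes became 8 with DESeq2's size factor method in edgeR, 3 at an adjusted p under 0.01, 4 with no filter, 32 by DESeq2 (20 higher, 12 lower, 7 shared with the 8), 0 with only the 2 groups fitted, 3 without the 5 gene-poor libraries (many reads outside genes), 3 with a term for library class, 5 within the 18 libraries outside both classes (none shared), and 2 to 13 when 1 library was left out. Shared replicate numbers did not pair shSTAT5A with shNT (correlations -0.0980, 0.0164 and -0.00150), and the fit with the replicate block gave 2 calls. Stat5a kept its direction throughout, at -1.48 (adjusted p = 0.264) with only the 2 groups fitted, -1.27 (adjusted p = 0.0834) within the 18 libraries, and -1.58 to -1.39 with 1 library left out. The 3 calls between shSTAT5A and shSTAT5B became 12 by DESeq2, 0 with only the 2 groups fitted, 6 with the class term, 0 without the 4 libraries with few multi-mapped reads, 4 with the replicate block, and 2 to 9 with 1 library left out. The median of IL3-induced genes was -0.11 with the replicate block, -0.11 with no minimum fold in wild type (362 genes), and -0.24 to -0.13 with 1 library left out. With 1 library left out the median of IL3-repressed genes was 0.11 to 0.25. With sets taken from a paired wild-type fit, the medians were -0.21 (201 induced genes) and 0.18 (43 repressed genes). Log2 fold changes of some genes that were not called changed sign. Without the 5 gene-poor libraries they were 0.23 for Ccnd2, -0.040 for Pim2, 0.075 for Rcor1, -0.024 for Socs2 and 0.037 for Stat2. With the class term they were 0.27 for Ccnd2, -0.092 for Id1, -0.11 for Pim2, -0.017 for Socs2 and 0.025 for Stat2. Within the 18 libraries they were 0.33 for Ccnd2, -0.61 for Hdc, -0.29 for Id1, -0.14 for Pim2 and 0.068 for Stat2. Without the 4 libraries with few multi-mapped reads they were -1.05 for Hdc and -0.23 for Id1. With 1 library left out they ranged from -1.03 to 2.55 for Hdc, from -0.22 to 0.34 for Id1 (both lowest without shSTAT5A 3), and from -0.21 to 0.049 for Stat2 (highest without shNT 3). The cause was not tested. Depth limits genes under about 0.433 CPM, where shNT 1 expects at most 3 reads.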
